A study of Mus musculus with 24 samples.

Results

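Collagens and laminins are the proteins from which basement membranes and connective tissue fibres are built. Their genes were taken as the protein-coding symbols of the form Col, digits, a, digits and the Lama, Lamb and Lamc genes, which gave 55 of the 21786 protein-coding genes in the files, 44 collagens and 11 laminins. Of these, 38 genes (29 collagens and 9 laminins) averaged at least 1 TPM (a level scaled to transcript length and to the library total) in at least 1 sample group. The 17 genes below that level in every group were Col2a1, Col4a3, Col4a4, Col6a4, Col6a6, Col8a2, Col9a1, Col9a2, Col10a1, Col11a1, Col13a1, Col19a1, Col22a1, Col24a1, Col28a1, Lama1 and Lamc3.

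RNA was sequenced from mouse prostate organoids and from anterior prostate lobes, in 24 libraries. Organoids, which are epithelial cultures, were grown in Matrigel from cells of anterior lobes of 3-month-old mice, in medium holding EGF, Noggin, R-Spondin, the inhibitors A83-01 and Y27632, B27 and N-acetylcysteine. They were labelled KO (Brca1-/-), HET (Brca1+/-) or WT, and were cultured without or with dihydrotestosterone (DHT), an androgen, in 3 libraries for each of the 6 groups. Tissue was labelled in the same way, with 2 libraries for each of the 3 groups. The labels used here do not say how the Brca1 alleles were made, or whether libraries of a group came from separate animals or cultures. The p-values therefore describe the spread among these libraries, which may be technical.

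A basement membrane is a sheet of 2 networks, one of laminins and one of type IV collagen, joined by nidogens and by heparan sulfate proteoglycans such as perlecan. A laminin is a trimer of an α, a β and a γ chain. Lama3 and Lamb3 encode an α and a β chain made by basal epithelial cells, where laminin and collagen XVII (Col17a1) meet the integrin of the hemidesmosome, while collagen VII (Col7a1) anchors the membrane to the stroma. The common type IV collagen trimer holds 2 α1 chains (Col4a1) and 1 α2 chain (Col4a2). Fibrillar collagens I and III come mainly from stromal cells. Matrigel is itself a laminin-rich and collagen IV-rich basement membrane extract, so the cultures measured here had both proteins supplied from outside.

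Library totals ranged from 11965815 to 58445041 estimated reads, and the smallest was WT plus DHT library 1. Mitochondrial genes took 9.43% of reads in HET minus DHT library 1 and 10.01% in KO minus DHT library 1, against at most 5.39% in each other library. Brca1 RNA did not follow the labels. It averaged 2.73 ± 0.17 TPM in KO-labelled, 3.96 ± 0.15 TPM in HET-labelled and 3.03 ± 0.21 TPM in WT-labelled organoids without DHT (SD, n = 3 each), and the HET-labelled level there exceeded the WT-labelled one by 0.53 log2 units (edgeR adjusted p = 0.0147). Groups are therefore named by their labels. In tissue, summed TPM of 7 seminal vesicle markers was 62880 in HET-labelled library 1 and 178200 in WT-labelled library 2, against 5.14 to 24.3 in the other 4 tissue libraries. Results on tissue are given with that in view.

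Summed epithelial markers were at 2876 to 3811 TPM in organoids and 1480 to 4097 TPM in tissue. Basal epithelial markers summed to 2076 to 3942 TPM in organoids and 112 to 1691 TPM in tissue. A list of 9 fibroblast markers summed to 15.4 to 41.7 TPM in organoids and 170 to 297 TPM in tissue. Of these 9, 3 or 4 reached 1 TPM in an organoid library and 8 or 9 in a tissue library. In bulk samples fewer cells of a type and less RNA per cell cannot be told apart.

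The fibrillar and stromal collagens were tissue genes. Col1a1, the α1 chain of collagen I, had 16.1 and 21.2 TPM in KO-labelled tissue, 18.8 and 21.01 TPM in HET-labelled tissue and 27.6 and 26.2 TPM in WT-labelled tissue, and 0.127 to 1.07 TPM over the 18 organoid libraries, of which 63.8% came from transcripts under 1000 bases. Col1a2, the α2 chain, had 15.7 to 32.3 TPM in tissue and at most 0.0307 TPM in organoids. Col3a1 had 20.3 to 73.1 TPM in tissue, or 11.2 to 34.8 TPM on transcripts of at least 1000 bases. In organoids Col3a1 had at most 0.214 TPM. These levels did not overlap between the 2 materials. Col15a1, a stromal basement membrane collagen, had 8.55 to 15.8 TPM in tissue against at most 0.557 TPM in organoids. The collagen VI chains Col6a1, Col6a2 and Col6a3, which form microfibrils around cells, had 9.95 to 19.98, 7.18 to 16.4 and 3.70 to 23.4 TPM in tissue, and none passed 0.13 TPM in an organoid library. On transcripts of at least 1000 bases Col6a3 had 1.36 to 7.51 TPM in tissue. Lama2, the α chain of muscle laminin, had 1.52 to 4.82 TPM in tissue and at most 0.0312 TPM in organoids.

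Organoids held the epithelial chains. Col17a1 had a median of 196 TPM in organoids (132 to 278 TPM) and had 2.76 to 19.4 TPM in tissue. Lama3 ranged over 115 to 186 TPM and Lamb3 over 85.8 to 211 TPM in organoids, against 4.12 to 16.5 and 4.62 to 17.4 TPM in tissue. All but a few TPM of Lama3 in organoids lay on the shorter 5551-base transcript Lama3-202, which averaged 169 TPM in KO-labelled and 160 TPM in WT-labelled organoids with DHT, while the 10548-base Lama3-201 averaged 4.55 and 3.28 TPM there. Col18a1, whose C-terminal fragment is endostatin, had 71.6 to 153 TPM in organoids and 11.8 to 17.0 TPM in tissue.

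**Figure D1:**
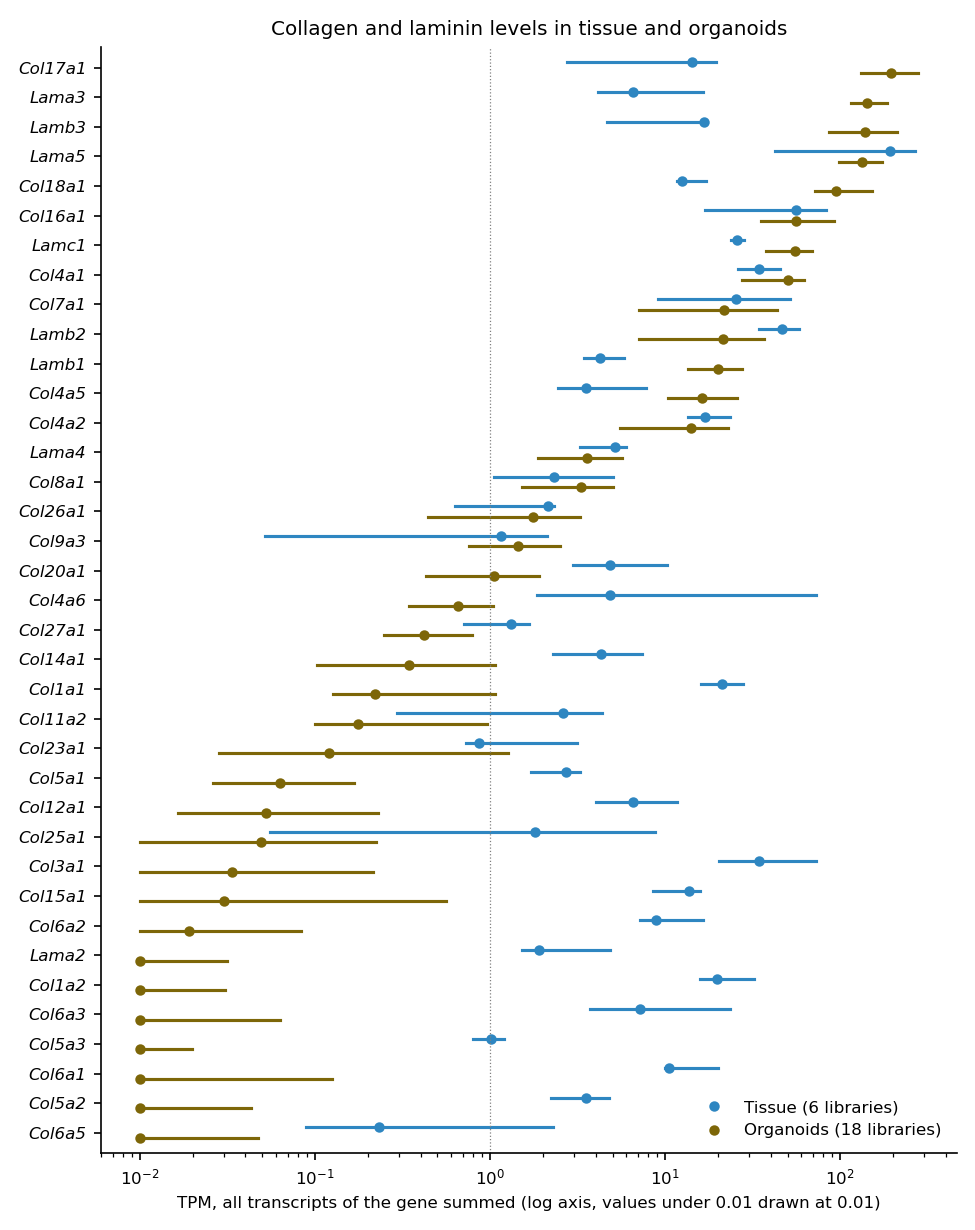
TPM of collagen and laminin genes with at least 1 TPM in a group, on a log axis, as medians (points) and ranges (lines) over 6 tissue libraries (blue) and 18 organoid libraries (brown). The stromal collagens Col1a2, Col3a1 and Col6a1 to Col6a3 lie far to the right in tissue, while Col17a1, Lama3 and Lamb3 lie to the right in organoids.

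Tested on estimated counts, 13490 of 17910 genes (75.3%) differed between tissue and organoids with DHT in the quasi-likelihood test of edgeR, with p-values adjusted over all genes by Benjamini-Hochberg at 0.05. Of the 52 collagen and laminin genes tested, 47 were called, close to a background in which most genes are called. Of these, 30 were higher in tissue, against 41.7% of all genes, and 17 were lower, against 33.7% of all genes. Of the 52, 16 passed the filter on low counts only through tissue, where they are high, among them Col1a2, Col3a1, Col15a1, Col5a2, Lama2 and Col6a1 to Col6a3, and all 16 were higher there. Their direction was set by the filter and is a description. Of the 36 that also passed in organoids alone, 14 were higher and 17 lower in tissue. The shares above are over all genes tested and not over those that also passed in organoids. These counts therefore have no matching background. The lowest p-values belonged to Col1a1 (log2 difference 7.21 ± 0.17 SE, adjusted p = 1.91e-16), Col1a2 (adjusted p = 8.64e-15), Col3a1 (adjusted p = 2.35e-14), Col17a1 (-4.34 ± 0.16, adjusted p = 4.05e-14), Col5a1, Col15a1, Col6a1 and Col12a1. The last 4 were all higher in tissue. Lama3 and Lamb3 were lower in tissue by counts (-4.54 and -3.78, adjusted p = 5.84e-11 and 6.79e-12), as were Lamb1 (-2.32), Lamc1 (-1.78), Col18a1 (-2.83) and Col4a5 (-2.23). Lamb2, the β2 chain, was higher (0.72, adjusted p = 0.00177). Of the main type IV chains, Col4a1 was lower (-0.56, adjusted p = 0.00107) and Col4a2 higher (0.42, adjusted p = 0.0282). Lama4, an endothelial and mesenchymal laminin chain, had 3.26 to 5.97 TPM in tissue and 1.89 to 5.69 TPM in organoids, and its difference of -0.26 ± 0.17 was not called (adjusted p = 0.171).

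For some genes the 2 scales gave opposite directions. Lama5, the α chain of the widespread epithelial laminins, had 42.2 to 268 TPM in tissue and 97.8 to 174 TPM in organoids, yet its estimated counts were lower in tissue than in organoids with DHT (-1.26 ± 0.22 log2, adjusted p = 5.37e-05). Transcripts under 1000 bases, such as the 451-base Lama5-202 and the 734-base Lama5-203, carried 80.5% of its TPM in tissue and 47.5% in organoids. On transcripts of at least 1000 bases alone, Lama5 had 8.85 to 60.7 TPM in tissue and 33.8 to 111 TPM in organoids, and its count difference was -1.44 (adjusted p = 1.35e-05). Such short transcripts made up over 20% of the TPM of 12 of the 38 genes in tissue and 15 in organoids, and with them left out 36 genes reached 1 TPM. Collagen XVI (Col16a1), collagen VII, Col3a1 and Col6a3 were among those with over 50% of their tissue TPM on them. Their levels per gene therefore compare less well between the materials.

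Of the 55 genes, 36 passed the filter on low counts in organoids, 27 of them from the 38 above. Type IV collagen differed between the genotype labels in its α2 chain. Col4a1 (ENSMUSG00000031502.11, GRCm38 chr8:11198423-11312826, minus strand) and Col4a2 (ENSMUSG00000031503.13, chr8:11312805-11449287, plus strand) start head to head and share 22 exonic bases. Without DHT, Col4a2 had 10.7, 11.5 and 18.6 TPM in KO-labelled organoids, 5.56, 5.60 and 9.75 TPM in HET-labelled organoids, and 22.6, 22.8 and 18.8 TPM in WT-labelled organoids. With DHT it had 14.9, 13.0 and 15.5 TPM in KO-labelled, 5.51, 9.39 and 7.10 TPM in HET-labelled, and 19.7, 17.8 and 17.9 TPM in WT-labelled organoids. In each medium the 3 HET-labelled libraries were the lowest, with no overlap with either of the other labels.

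Tested on counts, Col4a2 was lower in HET-labelled than in WT-labelled organoids by 1.45 ± 0.23 SE on the log2 scale without DHT (log2 change -1.45, edgeR adjusted p = 0.000609) and by a log2 change of -1.38 ± 0.23 with DHT (edgeR adjusted p = 0.00119). KO-labelled organoids exceeded HET-labelled ones by 0.93 ± 0.22 without DHT and 1.01 ± 0.22 with DHT (edgeR adjusted p = 0.0357 and 0.0187). The differences of KO-labelled from WT-labelled organoids, -0.53 and -0.38, were not called (adjusted p = 0.256 and 0.553). Leaving out 1 library at a time kept the HET against WT calls in all 6 of 6 fits in each medium, with adjusted p up to 0.00967. The KO against HET calls were lost in 4 of 6 fits without DHT (adjusted p up to 0.157) and in 5 of 6 with DHT (up to 0.0972).

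Col4a1 moved less. Without DHT it had 36.7, 40.9 and 54.4 TPM in KO-labelled, 30.3, 27.5 and 45.9 TPM in HET-labelled and 51.9, 48.9 and 45.2 TPM in WT-labelled organoids, so the HET-labelled and WT-labelled ranges overlapped. With DHT it had 61.4, 53.6 and 56.9 TPM in KO-labelled, 46.6, 56.9 and 43.7 TPM in HET-labelled and 62.4, 52.1 and 53.8 TPM in WT-labelled organoids. The log2 change in HET-labelled against WT-labelled organoids was -0.79 ± 0.19 without DHT (adjusted p = 0.0156) and -0.45 ± 0.19 with DHT, which was not called (adjusted p = 0.208). Leaving out 1 library ended the first call in 4 of 6 fits, with adjusted p up to 0.0725.

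The ratio of the 2 chains was taken within each library from transcripts of at least 1000 bases, a measure chosen after the values were seen. In tissue the ratio of Col4a1 to Col4a2 TPM was 2.11 and 1.88 with the KO label, 1.93 and 1.72 with the HET label and 2.26 and 1.83 with the WT label. Permutation tests of the ratio between labels were run, and their p-values are not given because the measure was chosen after the values were seen. In organoids without DHT it averaged 2.61 ± 0.39 with the KO label, 3.71 ± 0.52 with the HET label and 2.12 ± 0.36 with the WT label (SD, n = 3 each). With DHT it averaged 3.24 ± 0.05, 5.85 ± 0.59 and 2.75 ± 0.25 for KO, HET and WT labels (SD, n = 3 each). The HET-labelled libraries, at 3.23 to 4.26 without DHT and 5.22 to 6.40 with DHT, lay above all WT-labelled libraries of their medium.

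Estimates for the long transcripts Col4a1-201 and Col4a1-208 each reached 0 in single libraries, so sums over transcripts are used.

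**Figure D2:**
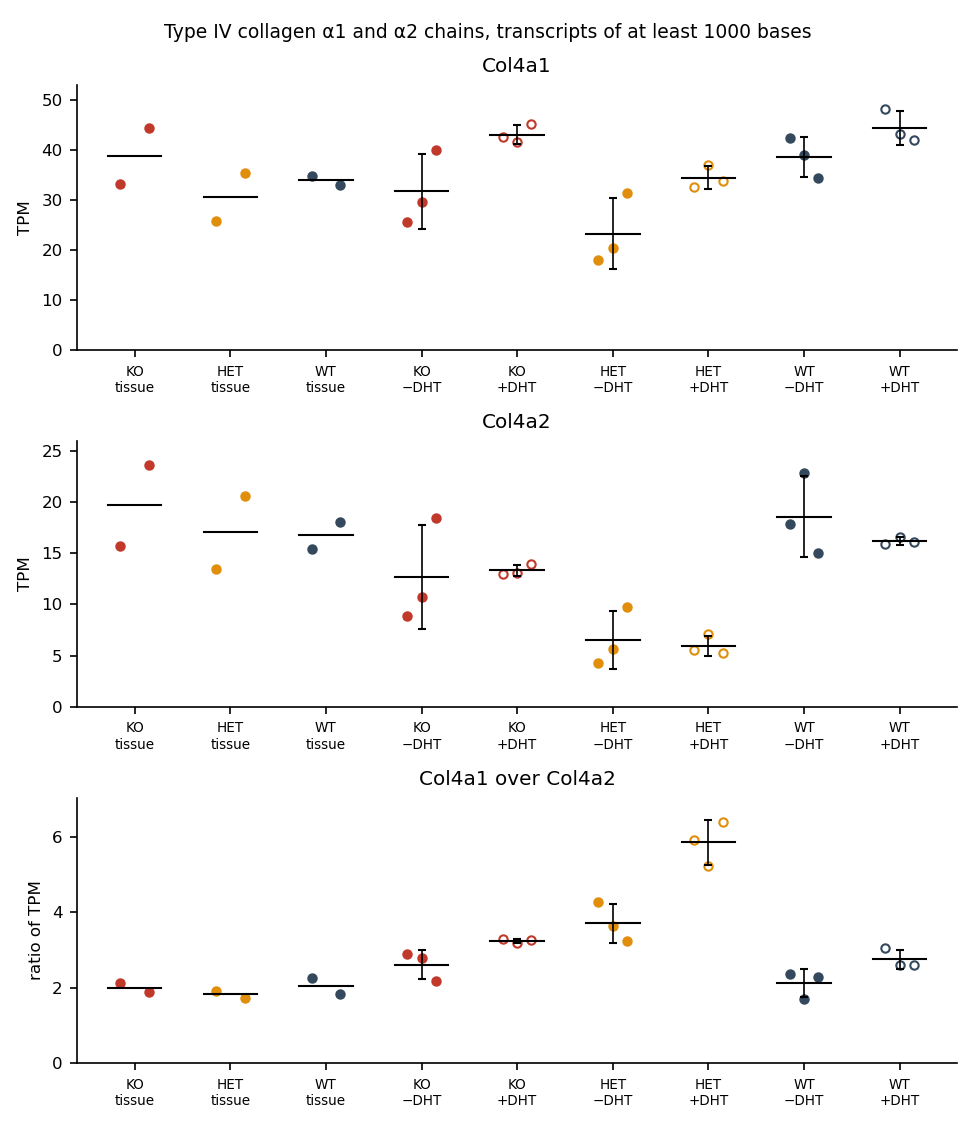
TPM of Col4a1 and of Col4a2, and their ratio, on transcripts of at least 1000 bases, for each library of the 3 tissue groups (2 points each) and the 6 organoid groups (3 points each). Horizontal bars are means, error bars in organoids are SD, and filled and open organoid points are cultures without and with DHT. The HET-labelled organoids have the lowest Col4a2 and the highest ratios, up to 6.40, while tissue lies between 1.72 and 2.26.

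Of the other type IV chains, Col4a5 was also lower in HET-labelled than in WT-labelled organoids without DHT, as given below. Col4a5 and Col4a6, whose products join an α5 and α6 network, lie head to head on chromosome X with starts 1343 bases apart. Col4a5 had 10.4 to 25.5 TPM in organoids and 2.46 to 7.76 TPM in tissue. Col4a6 had at most 1.03 TPM in organoids. In tissue Col4a6 had 6.29 and 11.2 TPM with the KO label and 1.84 and 3.43 TPM with the HET label. With the WT label it had 2.75 and 73.1 TPM. Both HET-labelled library 1, at 1.84 TPM, and WT-labelled library 2, at 73.1 TPM, were rich in seminal vesicle RNA. They held the lowest and the highest Col4a6 level of the tissue libraries. The 73.1 TPM stood far above the other 5 tissue libraries, and the part that seminal vesicle RNA had in it was not tested. Col4a3 and Col4a4, known for the kidney glomerulus, stayed under 1 TPM everywhere.

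In HET-labelled organoids the lower collagens were a wider set. Without DHT, 7 of the 36 collagen and laminin genes tested were lower than in WT-labelled organoids and 0 were higher, against 7.81% of all 15430 genes called in either direction, 4.52% higher and 3.29% lower. They were Col4a2, Col7a1 (log2 change -1.34 ± 0.27, adjusted p = 0.00444), Col17a1 (-0.54 ± 0.11, adjusted p = 0.00661), Col4a5 (-0.61 ± 0.13, adjusted p = 0.00839), Col4a1, Col16a1 (-1.05 ± 0.25, adjusted p = 0.0162) and Col14a1 (-1.06 ± 0.26, adjusted p = 0.0192). With DHT, 4 were lower and 0 higher, against 7.51% of all genes called, 4.03% higher and 3.47% lower: Col4a2, Col17a1 (-0.54 ± 0.11, adjusted p = 0.0077), Col7a1 (-1.01 ± 0.27, adjusted p = 0.0287) and Col11a1 (-0.87, adjusted p = 0.0421), a gene below 1 TPM in every group whose call was lost in 5 of 6 fits that left out 1 library (adjusted p up to 0.212). Col14a1 lost its call without DHT in 4 of 6 such fits (up to 0.0661), and Col4a5 in 0 of 6. The median log2 change over the 36 genes tested was -0.27 without DHT and -0.30 with DHT, beside 0.0028 and -0.0037 over all genes. No laminin gene was called in either medium.

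Promoters of 4 of the 7 genes are shown because these collagens were lower together in HET-labelled organoids without DHT. They are RefSeq windows before the gene starts in build GRCm38.p6, cut where annotated transcripts begin, read 5′ to 3′ on the gene's strand. Capitals mark GGGCGG (the letters of a GC box), CCAAT and TATAAA on either strand.
Col7a1, chr9:108953336-108953585, plus strand: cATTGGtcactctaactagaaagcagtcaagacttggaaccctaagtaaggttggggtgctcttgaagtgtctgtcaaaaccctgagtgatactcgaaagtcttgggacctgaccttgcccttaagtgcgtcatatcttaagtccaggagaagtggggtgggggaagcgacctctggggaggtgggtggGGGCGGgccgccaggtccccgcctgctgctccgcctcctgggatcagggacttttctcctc
Col17a1, chr19:47692095-47692292, minus strand: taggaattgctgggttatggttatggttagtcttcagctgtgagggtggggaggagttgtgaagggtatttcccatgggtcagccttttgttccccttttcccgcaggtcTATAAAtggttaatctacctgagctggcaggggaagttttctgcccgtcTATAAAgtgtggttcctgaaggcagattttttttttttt
Col16a1, chr4:130047590-130047839, plus strand: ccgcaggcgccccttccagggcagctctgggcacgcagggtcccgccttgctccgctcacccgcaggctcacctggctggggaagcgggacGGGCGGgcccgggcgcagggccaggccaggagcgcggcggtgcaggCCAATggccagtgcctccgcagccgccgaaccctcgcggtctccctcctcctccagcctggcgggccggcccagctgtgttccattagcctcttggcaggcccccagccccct
Col4a5, chrX:141475169-141475384, plus strand: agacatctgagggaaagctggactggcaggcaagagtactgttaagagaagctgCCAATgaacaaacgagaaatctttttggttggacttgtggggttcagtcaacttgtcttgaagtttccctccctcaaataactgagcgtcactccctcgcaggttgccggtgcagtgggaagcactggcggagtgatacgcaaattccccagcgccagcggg
The 4 windows shared no single one of these motifs. Col17a1 held TATAAA at 2 places and neither of the others, while Col7a1 and Col16a1 each held GGGCGG and CCAAT once. Over 32536 windows of 250 bases of all genes, 32.97% held GGGCGG, 33.81% CCAAT and 12.31% TATAAA on either strand. Windows matched 40 of the 55 genes, and of their 44 windows 24 held GGGCGG, 14 CCAAT and 5 TATAAA. The palindromic androgen response element was in 0 of the 44 windows and in 0.009% of all windows, and TGACTCA, the AP-1 motif, was in 1 of 44 and in 4.454% of all. A match of letters is a description and not a binding site.

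Among the epithelial collagens the values were as follows. Col17a1, the transmembrane collagen of the hemidesmosome, had 181, 191 and 259 TPM in KO-labelled, 132, 146 and 198 TPM in HET-labelled and 238, 278 and 212 TPM in WT-labelled organoids without DHT. With DHT it had 214, 193 and 205 TPM in KO-labelled, 149, 146 and 134 TPM in HET-labelled and 180, 238 and 224 TPM in WT-labelled organoids. HET-labelled and WT-labelled libraries did not overlap in either medium, and the call held in all 6 of 6 fits that left out 1 library in each medium.

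Col7a1, which forms anchoring fibrils, had 10.7, 13.7 and 27.7 TPM in KO-labelled, 7.06, 10.6 and 20.95 TPM in HET-labelled and 31.7, 43.7 and 28.6 TPM in WT-labelled organoids without DHT. With DHT it had 26.6, 20.4 and 22.0 TPM in KO-labelled, 21.3, 14.0 and 14.9 TPM in HET-labelled and 26.0, 32.8 and 38.7 TPM in WT-labelled organoids. HET-labelled libraries lay below all WT-labelled ones in each medium. The call with DHT was lost in 5 of 6 fits that left out 1 library (adjusted p up to 0.112), while the call without DHT held in 6 of 6. Its differences of KO-labelled from WT-labelled organoids were -0.82 and -0.56 and were not called (adjusted p = 0.104 and 0.383).

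Col16a1, a fibril-associated collagen, had 44.1, 50.7 and 73.4 TPM in KO-labelled, 37.2, 35.2 and 53.5 TPM in HET-labelled and 71.3, 92.6 and 70.4 TPM in WT-labelled organoids without DHT. The HET-labelled libraries again lay below the WT-labelled ones. Its call was lost in 3 of 6 fits that left out 1 library (adjusted p up to 0.0875).

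Within the HET-labelled and KO-labelled groups without DHT, Col7a1, Col16a1, Col4a2 and Col17a1 were highest in library 3. Mitochondrial read shares there were 10.01%, 4.17% and 2.61% in KO-labelled and 9.43%, 4.54% and 2.42% in HET-labelled libraries 1 to 3. With that share added to the fit, the 7 genes called without DHT were all called, at log2 changes of -1.30 for Col4a2, -1.19 for Col7a1 and -0.48 for Col17a1. With DHT the number called then was 10 of 36, with 9 lower. The share of all genes called in that fit is not given here, so this count has no background beside it.

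**Figure D3:**
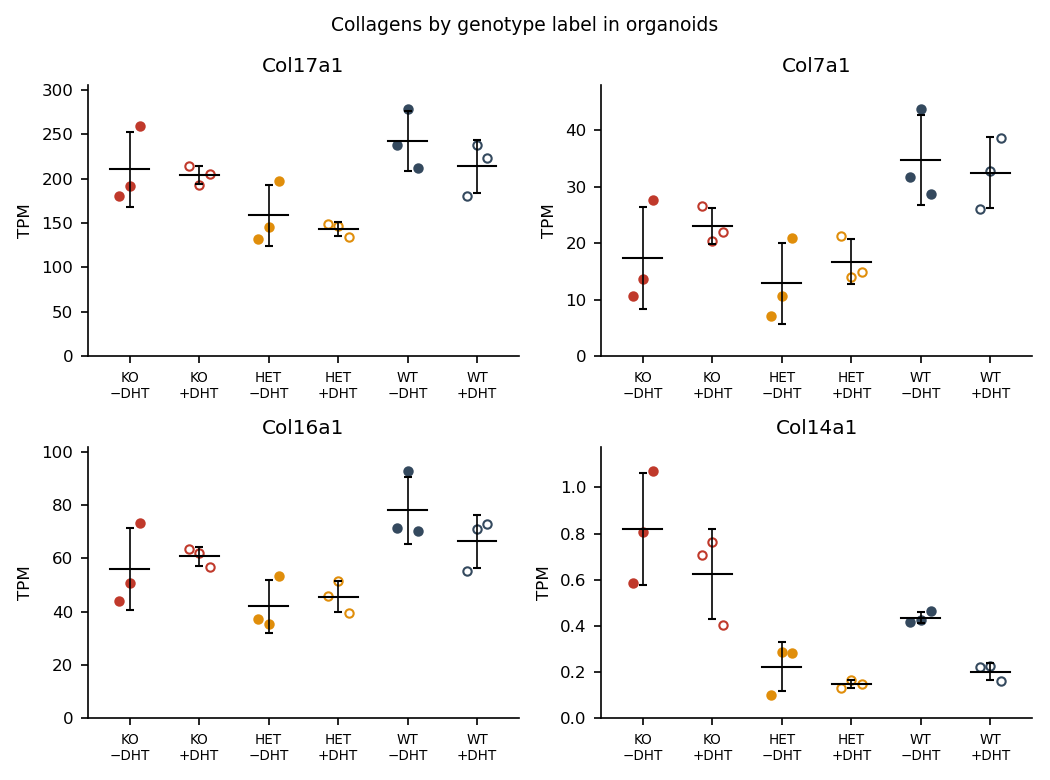
TPM of Col17a1, Col7a1, Col16a1 and Col14a1 in each of the 18 organoid libraries, by genotype label and medium, with means as bars and SD as error bars (n = 3). Filled points are without DHT and open points with DHT. HET-labelled libraries are the lowest of the 3 labels for Col17a1 with DHT, at 134 to 149 TPM.

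Lists of stromal markers differed between the labels in unlike ways. Without DHT, 9 fibroblast markers summed to 28.7 to 32.3 TPM in KO-labelled, 15.4 to 23.0 TPM in HET-labelled and 35.8 to 38.2 TPM in WT-labelled organoids. The 8 smooth muscle markers summed to 5.03 to 7.98 TPM in KO-labelled, 1.86 to 3.00 TPM in HET-labelled and 0.86 to 1.73 TPM in WT-labelled organoids. The 4 pericyte markers summed to 17.5 to 24.4 TPM in KO-labelled, 11.95 to 16.1 TPM in HET-labelled and 15.4 to 20.3 TPM in WT-labelled organoids, and the 8 endothelial markers to 10.9 to 12.95 TPM in KO-labelled, 8.73 to 11.3 TPM in HET-labelled and 9.69 to 11.3 TPM in WT-labelled organoids. Fibroblast sums were lowest with the HET label, and smooth muscle sums were highest with the KO label. Dcn, a proteoglycan of fibroblasts, ranged over 16.3 to 21.1 TPM in KO-labelled, 5.89 to 7.58 TPM in HET-labelled and 22.8 to 26.8 TPM in WT-labelled organoids without DHT. The gap in fibroblast sums between HET-labelled and WT-labelled organoids was about that of Dcn alone. Those sums therefore do not show lower levels of the other fibroblast markers. Of the 9 fibroblast markers, 3 or 4 reached 1 TPM in an organoid library. The part of these cell types in the collagen differences was not tested.

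Between KO-labelled and WT-labelled organoids the number of collagen and laminin genes called depended on the fit. With DHT, 3 of 36 were higher and 1 lower, against 4.11% of all genes called, 2.53% higher and 1.58% lower: Lama4 (log2 change 0.73 ± 0.17, adjusted p = 0.0193), Col14a1 (1.15 ± 0.27, adjusted p = 0.0230), Lamb1 (0.38 ± 0.09, adjusted p = 0.0261) and, lower, Col6a4 (adjusted p = 0.0240), which stayed under 0.16 TPM in organoids. Lamb1, the β1 chain of the widespread laminins, had 22.8, 20.8 and 23.3 TPM in KO-labelled, 16.6, 16.7 and 17.5 TPM in HET-labelled and 13.5, 17.3 and 17.0 TPM in WT-labelled organoids with DHT. Its KO-labelled libraries lay above all others with DHT, but its call was lost in all 6 of 6 fits that left out 1 library (adjusted p from 0.0542 to 0.122). The calls of Lama4 and Col14a1 were each lost in 4 of 6 such fits (adjusted p up to 0.128 and 0.165), and that of Col6a4 in 4 of 6 (up to 0.134). Without DHT, only Col11a1, a minor fibrillar collagen below 1 TPM in every group, was called of 36, and higher (0.87, adjusted p = 0.0492), against 4.8% of all genes called, 2.83% higher and 1.98% lower, and that call was lost in 6 of 6 fits that left out 1 library (up to 0.211). In the same comparison 6 genes were called with the mitochondrial share in the fit (4 higher, 2 lower), 6 by DESeq2 (3 higher, 3 lower) and 0 without the filter on low counts. Shares of all genes called in these other fits are not given here.

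Col14a1, a fibril-associated collagen that binds decorin, separated the KO and HET labels in both media. It had 0.587, 0.806 and 1.07 TPM in KO-labelled, 0.103, 0.286 and 0.283 TPM in HET-labelled and 0.419, 0.426 and 0.464 TPM in WT-labelled organoids without DHT. With DHT it had 0.708, 0.766 and 0.404 TPM in KO-labelled, 0.1302, 0.166 and 0.151 TPM in HET-labelled and 0.222, 0.226 and 0.160 TPM in WT-labelled organoids. The levels are low, and KO-labelled libraries lay above all HET-labelled ones in each medium. Between KO-labelled and HET-labelled organoids 3 of 36 genes were higher and 0 lower in each medium, against 2.92% of all genes called without DHT (1.35% higher, 1.56% lower) and 3.54% with DHT (1.79% higher, 1.75% lower). They were Col14a1 (1.90 ± 0.27 and 1.83 ± 0.27, adjusted p = 0.000819 and 0.00123), Col11a1 (1.59 and 1.53) and Col4a2 in each medium. The calls of Col14a1 and Col11a1 held in all 6 of 6 fits that left out 1 library in each medium. Same-numbered HET-labelled and KO-labelled libraries without DHT deviated together from their group means (correlations 0.61, 0.23 and 0.69). In a fit of these 6 libraries with the replicate number as a block, chosen after the data were seen, 16 of 35 genes were higher and 0 lower in KO-labelled organoids, against 18.6% of all genes called in either direction. Among them were Col4a2 (log2 change 0.93), Col4a1 (0.51), Col16a1 (0.63), Col17a1 (0.38) and Col7a1 (0.55). Their p-values are not given because the block was chosen after the data were seen. Without the block the same 6 libraries gave 0 calls, with 8 genes at an unadjusted p under 0.05. The median change over the 36 genes was 0.38 without DHT and 0.35 with DHT, beside 2.03e-05 and 0.0053 over all genes. These genotype comparisons share libraries, so their changes are not independent of one another.

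**Figure D4:**
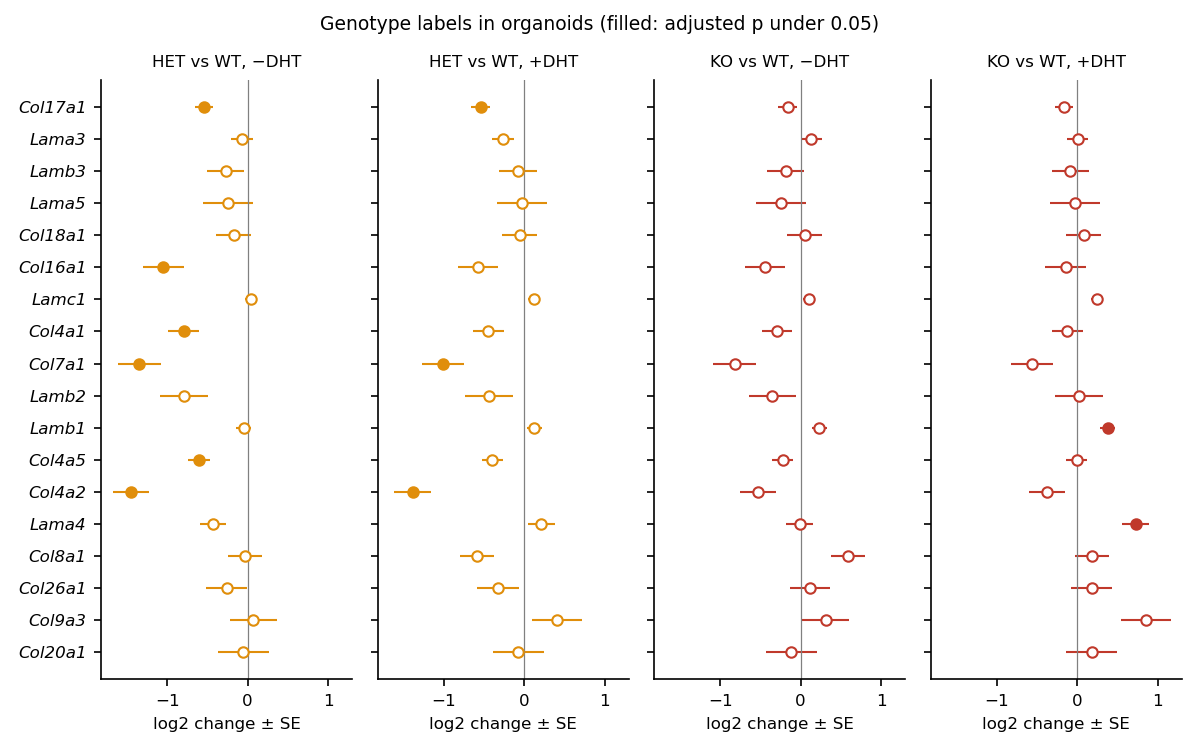
Log2 changes with standard errors from edgeR for collagen and laminin genes with at least 1 TPM in an organoid group, in HET-labelled (orange) and KO-labelled (red) against WT-labelled organoids, without and with DHT. Filled points have an adjusted p under 0.05. The filled points lie to the left of 0 for HET-labelled organoids, as for Col4a2 at -1.45 without DHT, while Lama4 and Lamb1 lie to the right in KO-labelled organoids with DHT.

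Lama3 and Lamb3 were not called between any labels in organoids, KO against HET included, but Lama3 levels with DHT were lowest with the HET label. Lama3 then had 185.7, 165.9 and 168.8 TPM in KO-labelled, 136.2, 120 and 142.4 TPM in HET-labelled and 159.5, 169 and 162.4 TPM in WT-labelled organoids. Without DHT its HET-labelled libraries lay below the WT-labelled ones and overlapped with the KO-labelled ones. Lamb3 ranges overlapped between all labels in each medium. For Lama3 the 4 log2 changes of KO-labelled or HET-labelled from WT-labelled organoids lay between -0.26 and 0.13, and for Lamb3 between -0.27 and -0.08, with none called. Lama5, Lamb2 and Lamc1 were not called in a genotype comparison of organoids either. Lamb2 had the widest of these changes, -0.79 ± 0.30 in HET-labelled organoids without DHT (adjusted p = 0.142).

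Withdrawal of DHT was tested within each label and over all 3. In WT-labelled organoids 1 of 36 genes was called, against 1.3% of all genes called, 0.603% higher and 0.694% lower, and it was Lama4 (chr10:38965515-39110188). Lama4 had 5.69, 3.998 and 4.92 TPM without DHT and 2.43, 2.03 and 1.89 TPM with DHT in WT-labelled organoids. The groups did not overlap, and the log2 change was 1.11 ± 0.17 (edgeR adjusted p = 0.00202), held in all 6 of 6 fits that left out 1 library. In HET-labelled organoids Lama4 had 2.57, 3.40 and 4.33 TPM without DHT and 2.55, 2.49 and 2.11 TPM with DHT. In KO-labelled organoids it had 3.78, 4.81 and 5.32 TPM without DHT and 4.71, 3.42 and 3.96 TPM with DHT, which overlap. In HET-labelled and KO-labelled organoids 0 of 36 genes were called by edgeR, against 0.707% of all genes called in HET-labelled (0.344% higher, 0.363% lower) and 0.557% in KO-labelled organoids (0.194% higher, 0.363% lower), with 4 and 7 genes at an unadjusted p under 0.05 and 1 and 0 called by DESeq2.

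The withdrawal responses were compared directly, with Lama4 named because it was called in WT-labelled organoids. These comparisons share WT-labelled libraries with that call and with the KO against WT call of Lama4 with DHT. They are therefore not independent of those calls. The change of Lama4 was smaller in KO-labelled than in WT-labelled organoids by a log2 difference of -0.74 ± 0.23 and in HET-labelled than in WT-labelled organoids by -0.64 ± 0.23, with unadjusted p of 0.00605 and 0.0144 in the edgeR fit, and neither passed adjustment (adjusted p = 1.00). Over all genes 0% were called in each of the 3 comparisons of responses by edgeR, and 0 of the 36 collagen and laminin genes, with 1, 1 and 0 of them at an unadjusted p under 0.05 and 0 called by DESeq2.

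Averaged over the 3 labels, 4 of 36 genes rose and 2 fell on withdrawal, against 4.96% of all genes called, 2.56% higher and 2.4% lower. Lama4 rose by 0.64 ± 0.10 (edgeR adjusted p = 0.00056), Col4a5 by 0.36 ± 0.08 (edgeR adjusted p = 0.0105), Col14a1 by 0.68 ± 0.15 (edgeR adjusted p = 0.0166) and Col9a2, a cartilage collagen below 1 TPM in every group, by 0.74 ± 0.18 (edgeR adjusted p = 0.0251). Among those that fell, Col4a1 had a log2 change of -0.45 ± 0.11 (edgeR adjusted p = 0.0255), while Col4a2 changed by 0.0094 ± 0.13 and was not called. Lama4 and Col4a5 kept their calls in all 18 of 18 fits that left out 1 library. Col14a1 lost its call in 1 of 18, without WT plus DHT library 3 (adjusted p = 0.0514). Col9a2 lost it in 9 of 18, and Col4a1 lost it in 2 of 18, without HET plus DHT library 2 (adjusted p = 0.0631) and without WT minus DHT library 3 (adjusted p = 0.0510). Col4a1 was also not called with WT plus DHT, HET minus DHT and KO minus DHT libraries 1 left out together (-0.32, adjusted p = 0.0557).

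Col4a5 had 17.8, 17.2 and 24.5 TPM in KO-labelled organoids without DHT and 17.2, 14.0 and 16.6 TPM with DHT. It had 13.4, 11.9 and 18.4 TPM in HET-labelled organoids without DHT and 12.2, 10.4 and 11.1 TPM with DHT. WT-labelled organoids had 23.6, 25.5 and 20.3 TPM without DHT and 16.0, 15.6 and 13.7 TPM with DHT. The media did not overlap with the WT label, and overlapped at their edges with the HET and KO labels. With the mitochondrial share added to the fit, 12 of 36 genes were called over the 3 labels. Among them were Lama3, lower by a log2 change of -0.30, and Col18a1, higher by 0.40. No share of all genes called in that fit is given here, so the count of 12 has no background beside it.

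**Figure D5:**
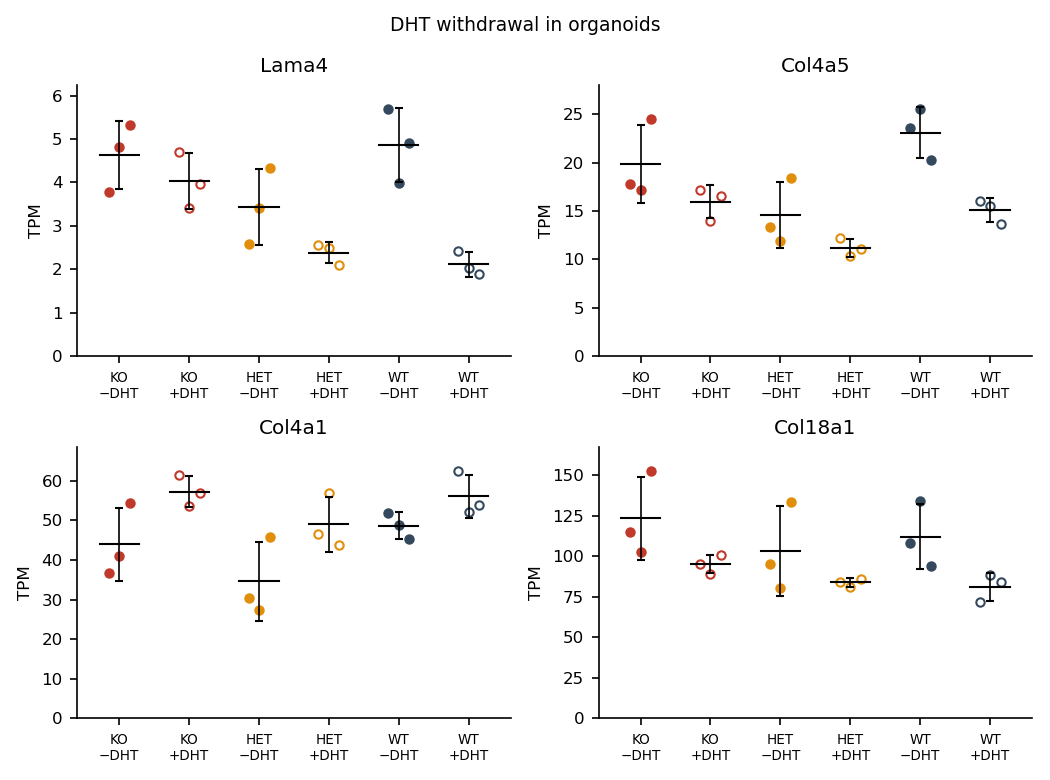
TPM of Lama4, Col4a5, Col4a1 and Col18a1 in each organoid library, without DHT (filled) beside with DHT (open) for each genotype label, with means as bars and SD as error bars (n = 3). Lama4 lies at 3.998 to 5.69 TPM without DHT and 1.89 to 2.43 TPM with DHT in WT-labelled organoids.

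In tissue none of the genotype comparisons called a gene by edgeR. Of 16750 genes 0% were called in each, and of 50 collagen and laminin genes 0, with 7, 6 and 0 at an unadjusted p under 0.05 in HET against WT, KO against WT and KO against HET labels. DESeq2 called 1, 1 and 0 of them. The gene was Col3a1, the chain of collagen III, which had 30.4 and 20.3 TPM in KO-labelled tissue, 38.1 and 21 TPM in HET-labelled tissue and 68.6 and 73.1 TPM in WT-labelled tissue. Both WT-labelled libraries lay above the other 4, with edgeR log2 differences of -1.64 ± 0.29 for KO and -1.59 ± 0.29 for HET labels (edgeR adjusted p = 1.00 and 0.997) and DESeq2 differences of -1.64 and -1.58 (adjusted p = 0.00879 and 0.0195). Without HET-labelled library 1 and WT-labelled library 2, which left a single WT-labelled library, the KO-labelled difference was -1.48. Col1a2 had 15.9 and 17.4 TPM in KO-labelled, 22.2 and 15.7 TPM in HET-labelled and 28.8 and 32.3 TPM in WT-labelled tissue and was not called.

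The genes that work with collagens and laminins were read from lists of 32 collagen biosynthesis genes, 20 basement membrane partners and 19 receptors. On withdrawal averaged over labels, 6 of 17 tested basement membrane partners rose and 0 fell, 3 of 26 biosynthesis genes rose and 0 fell, and 2 of 18 receptors rose and 0 fell, against 2.56% of all genes higher and 2.4% lower. Nid1, which links laminin to collagen IV, rose by 0.67 ± 0.07 (edgeR adjusted p = 2.88e-05), and Sparc, a collagen-binding protein, by 0.38 (adjusted p = 0.000263). Itga1, the α subunit of a collagen-binding integrin, rose by 1.39 (adjusted p = 2.71e-06), at low levels of 0.071 to 1.19 TPM in organoids.

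Between labels the partners moved in unlike directions. Sparc had 66.5, 74.4 and 76.3 TPM in KO-labelled, 13.9, 15.2 and 16.4 TPM in HET-labelled and 71.6, 67.2 and 64.6 TPM in WT-labelled organoids without DHT. Its log2 change in HET-labelled against WT-labelled organoids was -2.07 without DHT and -1.999 with DHT (edgeR adjusted p = 1.60e-09 and 3.35e-09). Nid1 had 3.78, 3.22 and 4.31 TPM in KO-labelled, 4.22, 2.80 and 3.86 TPM in HET-labelled and 1.65, 1.91 and 2.14 TPM in WT-labelled organoids without DHT. It was higher than in WT-labelled organoids by 1.096 in KO-labelled and 1.02 in HET-labelled organoids (adjusted p = 5.05e-05 and 6.87e-05). In HET-labelled against WT-labelled organoids 2 of 17 partners were higher and 4 lower in each medium, against 4.52% of all genes higher and 3.29% lower without DHT and 4.03% higher and 3.47% lower with DHT. The lower ones were Sparc, Smoc2, Fras1 and Pxdn. In KO-labelled against WT-labelled organoids 4 of 17 partners were higher and 2 lower without DHT, against 2.83% and 1.98% of all genes. With DHT 3 were higher and 2 lower, against 2.53% and 1.58%. The lower ones were Smoc2, a Sparc relative (log2 change -2.21 without and -0.77 with DHT, edgeR adjusted p = 5.51e-07 and 0.0102), and Fras1 (-2.05 and -1.37, adjusted p = 9.18e-05 and 0.00353).

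Serpinh1, the chaperone of procollagen, had 8.10, 8.53 and 12.4 TPM in KO-labelled, 3.50, 5.15 and 6.90 TPM in HET-labelled and 5.06, 5.82 and 4.44 TPM in WT-labelled organoids without DHT. It was higher in KO-labelled than in WT-labelled organoids by 0.99 without DHT and 1.23 with DHT (edgeR adjusted p = 0.000992 and 0.000161). Loxl2, a collagen-crosslinking oxidase, was higher there by 0.59 and 0.89 (adjusted p = 0.0293 and 0.00192). The laminin-binding integrin subunits Itga3, Itga6 and Itgb4 were lower in tissue than in organoids with DHT by counts, with log2 differences of -2.40, -2.19 and -2.13, while Itga7, which also binds laminin, was higher (2.01, edgeR adjusted p = 1.02e-05). Of the 19 receptors 9 were higher and 9 lower, against 41.7% and 33.7% of all genes.

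Over the 18 organoid libraries, the 5 genes whose log2 CPM followed Col4a1 most closely were St5, Ror2, Bmf, Med23 and Colgalt1, with Pearson correlations of 0.947, 0.930, 0.928, 0.921 and 0.916. Colgalt1 glycosylates collagens. The libraries share genotype label, medium and depth, so these correlations are a description across libraries of these cultures.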

How the data were processed

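Collagen and laminin genes, gene lists and tests were chosen with earlier results of these data known. The deposited files hold estimated counts and TPM per transcript, made by the authors. Per the submitters' processing notes, the tool was Salmon 0.13.1 and the named build hg38, whereas the identifiers are mouse, and the index, strandedness and trimming are not given in the sources used here. Antisense overlap could therefore not be resolved.

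Transcripts were assigned to genes with GENCODE mouse release 21, matching identifiers without version. In each library 922 of 116945 transcripts had no match and held 0.228% to 0.327% of reads. TPM was summed per gene for levels, with at least 1 TPM in a group as the reporting bound. Estimated counts were summed and rounded for tests.

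Groups came from titles and genotype labels. Tests used R 4.3.3 and edgeR 4.0.16 (TMM, filterByExpr by group, quasi-likelihood F-test, Benjamini-Hochberg over all genes, threshold 0.05). The fits were the 18 organoid libraries (15430 genes, 12 residual degrees of freedom), the 6 tissue libraries (16750 genes, 3) and all 24 (17910 genes, 15). Scripts were tested on simulated data. Named genes were the type IV collagens, Lama3, Lamb3, Lama5, Lamb1, Lamb2, Lamc1, Col17a1, Col7a1, Col18a1, Col15a1, Col1a1, Col1a2 and Col3a1, plus up to 8 called members of lowest p in each comparison. Other genes, among them Col5a2, Col6a2, Col6a3 and Lama2, were named after their values were seen, as were levels of called genes in comparisons where they were not called. A gene that the rule names is not reported here. Alternatives were DESeq2 1.42.0, its size factors, no filter, a replicate block (same-numbered HET minus DHT and KO minus DHT libraries deviated together, with correlations of 0.23 to 0.69, and no label gives the source of this pairing; a fit of these 6 libraries alone was added after seeing the data), the mitochondrial share as a covariate and leaving out libraries. Left out after seeing the data were transcripts under 1000 bases, or 3 organoid libraries together.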

Additional observations from a re-analysis of the deposited data

How the results depend on the processing

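Alternatives were summarised for 37 called gene results, the 29 calls within organoids and the 8 of lowest p between tissue and organoids. Of those 8, Col1a2, Col3a1, Col15a1 and Col6a1 passed the filter on low counts only through tissue, which set their direction. The 37 results kept their direction under every alternative run, and kept their call under DESeq2, its size factors in edgeR, the replicate block and the mitochondrial covariate. Without the low-count filter 3 lost the call, with short transcripts left out 1 (Col11a1) and without organoid libraries 1 of WT plus DHT, HET minus DHT and KO minus DHT 3 (Col4a1 on withdrawal, Lamb1 at 0.31 with adjusted p = 0.0631, and Col4a2 in KO against HET without DHT at 0.92 with adjusted p = 0.0771). Of the other genes called between tissue and organoids, those printed with a value (Lama3, Lamb3, Lama5, Lamb1, Lamb2, Lamc1, Col18a1, Col4a1, Col4a2 and Col4a5) kept direction and call in 8 alternatives other than leaving out single libraries, with adjusted p up to 0.0400 for Col4a2, and the rest were not followed one by one. Leaving out 1 library at a time kept 300 and ended 66 of the fits of single genes. Each of the 8 genes between tissue and organoids kept its call in all 15 of its fits. All 66 ended fits therefore belonged to the 29 calls within organoids. Calls of biosynthesis, basement membrane partner and receptor genes were not followed through the alternatives.

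Counts of genes called moved by over 1.5 times as follows, without the share of all genes called in the same fits beside them. With the mitochondrial covariate they were 6 for withdrawal in WT, 1 in HET and 2 in KO, 12 over all labels, 10 for HET against WT with DHT, 11 for KO against HET in each medium and 6 for KO against WT without DHT. With DESeq2 they were 4 for withdrawal in WT and 1 in HET, 8 and 7 for KO against HET with and without DHT, 6 for KO against WT without DHT, and 1 for HET and 1 for KO against WT in tissue. Without the 3 organoid libraries they were 2 for withdrawal in WT, 6 for KO against HET with DHT and 2 for KO against WT without DHT. KO against WT without DHT had 0 without the filter and 0 without short transcripts. The tissue fit without libraries HET 1 and WT 2 left a single library with the WT label and with the HET label, so its count is not given.

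Leave-one-out counts ran from 4 to 8 for HET against WT without DHT and 2 to 4 with DHT, 0 to 2 for KO against WT in each medium, 2 to 5 and 2 to 3 for KO against HET without and with DHT, and 0 to 0 for the tissue comparisons and the differences of responses. For withdrawal they ran from 1 to 1 in WT, 0 to 1 in HET, 0 to 0 in KO and 4 to 7 over all labels, and for tissue against organoids from 44 to 49. Where this left 1 tissue library in a group, it was assumed to vary like the others.

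The labels do not say what a replicate number shares. Same-numbered organoid libraries deviated together with correlations of -0.52 to 0.69, 17 of 45 over 0.1. All 3 pairs were over 0.1 for KO against HET without DHT (0.23 to 0.69) and in no other organoid comparison made, and a library correlated best with its own number in 40 of 90 comparisons with another group. With the replicate block, 4 genes were called for KO against HET with DHT in place of 3, and other counts were as before, such as 7 for HET against WT without DHT. That block is shared by 18 libraries. For KO against HET without DHT, a fit of its 6 libraries, chosen after seeing the data, called 16 genes with the block and 0 without it, so the 3 calls of that comparison were lost there without the block.

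Genes under 1 TPM rest on few reads, and 36 of the 55 genes passed the filter in organoids.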
